A study of Homo sapiens with 12 samples.

Results

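The genes described here are 7 transcription regulators of human U937 cells, the Krüppel-like factors KLF2, KLF4, KLF6 and KLF10 and the inhibitors of DNA binding ID1, ID2 and ID3. They were taken by name from the 19775 genes that the array measures with a probe set, a group of short probes combined into 1 value, annotated to that gene alone. The 7 genes have 14 such probe sets, and each gene is represented by the brightest of its own, by mean over the arrays. U937 is an established human myeloid leukaemia line with monocytic features. Its cells had been transduced with an EVI1 expression vector or with empty vector and were exposed for 24 h to 1 µM all-trans retinoic acid (ATRA), a ligand of the retinoic acid receptors made from vitamin A, or to the same amount of the solvent DMSO. The 12 arrays form 4 groups of 3 replicates: EVI1 cells with ATRA, EVI1 cells with DMSO, vector cells with ATRA and vector cells with DMSO. EVI1 is a zinc finger transcription factor and a myeloid oncogene. All 4 groups carry a vector, and whether either line is 1 clone and which promoter drives EVI1 are not given in the sources used here.

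KLF proteins bind GC-rich and CACCC sequences through zinc fingers at their C-terminal end, and members of the family act as activators or repressors. KLF4 is known in blood cells for driving monocyte differentiation, KLF2 for keeping T cells and monocytes quiescent, KLF6 as a factor of the myeloid inflammatory response, and KLF10 as a gene induced early by TGF-beta. ID proteins have a helix-loop-helix domain but no basic DNA-binding region. They pair with E proteins such as the product of TCF3 and keep them from DNA, and ID1, ID2 and ID3 are classical targets of bone morphogenetic protein (BMP) signalling through SMAD factors.

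Stretches of 250 bases before the annotated start are printed for ID1 and KLF4, the 2 genes with the largest ATRA differences, and for ID2, as a relative of ID1. They are RefSeq sequences of GRCh38.p14, and 6 of the 7 genes matched the promoter table. Capitals mark CACCC, the core of the KLF box, and TGACG, a half-site of the cyclic AMP response element, each searched on both strands.
ID1, chr20:31605039-31605288, plus strand: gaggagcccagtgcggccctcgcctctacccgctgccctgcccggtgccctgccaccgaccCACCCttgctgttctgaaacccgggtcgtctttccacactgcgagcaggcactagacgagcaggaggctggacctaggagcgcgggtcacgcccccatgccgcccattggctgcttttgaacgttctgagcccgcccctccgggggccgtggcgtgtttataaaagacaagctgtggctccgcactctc
ID2, chr2:8681806-8682055, plus strand: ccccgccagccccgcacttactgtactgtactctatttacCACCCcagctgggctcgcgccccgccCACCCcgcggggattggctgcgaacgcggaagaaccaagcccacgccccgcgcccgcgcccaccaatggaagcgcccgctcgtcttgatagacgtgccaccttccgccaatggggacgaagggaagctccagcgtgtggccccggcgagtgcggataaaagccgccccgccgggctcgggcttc
KLF4, chr9:107489770-107490019, minus strand: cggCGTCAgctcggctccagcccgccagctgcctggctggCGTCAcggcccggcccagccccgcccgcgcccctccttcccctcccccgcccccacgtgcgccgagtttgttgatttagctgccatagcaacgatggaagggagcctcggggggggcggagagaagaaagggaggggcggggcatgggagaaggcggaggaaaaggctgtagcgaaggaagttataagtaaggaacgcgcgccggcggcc
ID1 held 1 match to CACCC and ID2 held 2, against 54.7% of 35116 windows of this length with at least 1. KLF4 held 2 matches to TGACG and none to CACCC, and the window of ID3, which is not printed, held 1 match to TGACG. That motif was found in 21.2% of the windows. The retinoid half-site AGGTCA (12.1% of all windows), GGCGCC (16.4%), the core of a BMP-responsive SMAD element, and GATAAG (5.65%), a core of the GATA-like EVI1 site, were in none of the 6 members' windows. The GC content of the printed windows was 66.0% for ID1 and 69.2% for ID2 and for KLF4, with a median of 58.0% over all windows. A match describes the letters in the window, not a bound site.

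Values are RMA signals on the log2 scale, in which a difference of 1 is a 2-fold change. Array medians lay between 5.29 and 5.35 and lower quartiles between 3.83 and 3.91. A gene was tested where 3 or more arrays read 5 or above, which held for 14080 genes, among them 6 of the 7 members. ID3 was below this limit. Differences were tested with limma over all 12 arrays and are called at a Benjamini-Hochberg adjusted p under 0.05 over the 14080 genes. Samples with the same replicate number deviated together (r from 0.41 to 0.70 between groups, against -0.56 to 0.16 for different numbers), so the adjusted p of a fit with the replicate number as a block is given where it changes a member's call, and its counts are given for each gene list. The transduced gene, MECOM, read 2.61 to 3.6 with its 5 probe sets in all groups, and the part of the transcript they read was not compared with the vector, so the EVI1 label was not checked by these arrays. Of 13 monocytic and immature myeloid markers with a probe set of their own, 12 were at 5 or above on every array. Their mean level was 9.34 to 9.73 over the arrays. Of the markers of other cell types, 4 of 6 erythroid, 4 of 6 megakaryocyte, 5 of 10 T and NK, 3 of 6 B, 2 of 7 epithelial and 5 of 11 fibroblast and endothelial genes were also at 5 or above on every array, with mean levels of the lists between 4.53 and 6.17. The highest were PECAM1 (10.40 to 12.38), which myeloid cells also express, NKG7 (7.18 to 8.33) and EPOR (7.53 to 8.10), while EPCAM (2.78 to 3.37), PPBP (2.84 to 3.48), MS4A1 (3.87 to 4.77) and CDH5 (3.08 to 3.55) were below 5 on every array. On a score of the ATRA pattern, both number 3 DMSO arrays were nearer to the ATRA arrays than the other DMSO arrays were. Averaged over the 436 genes called in the same direction in both ATRA comparisons, with the sign of the change and relative to the gene's mean, they scored -0.25 in EVI1 and -0.39 in vector cells, while the other DMSO arrays scored -0.67 to -0.59 and the ATRA arrays 0.35 to 0.79. In the ATRA groups the scores at numbers 1 to 3 were 0.47, 0.67 and 0.79 in EVI1 cells, and 0.35, 0.48 and 0.42 in vector cells. Values without the 2 DMSO arrays of number 3 are given where they touch a result.

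**Figure D1:**
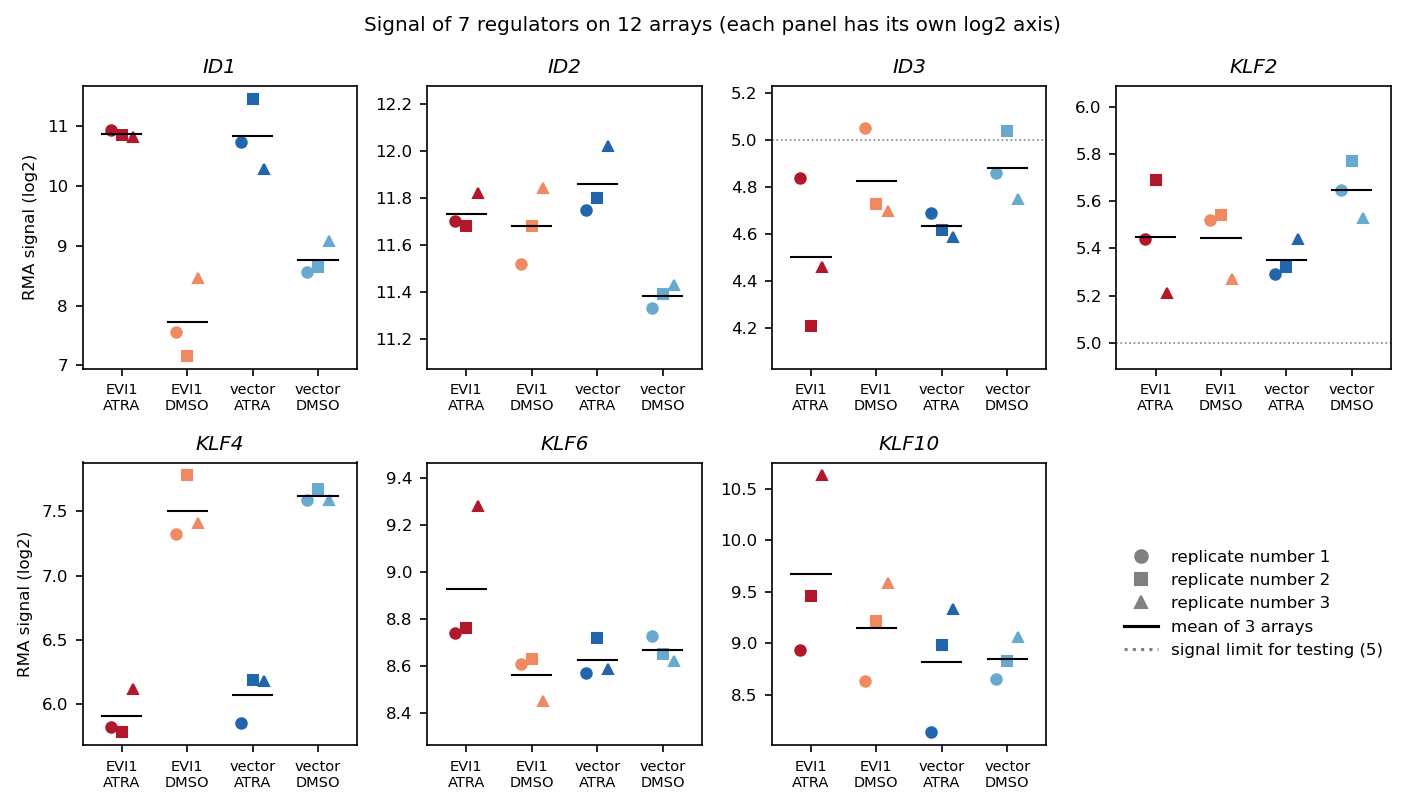
RMA signal (log2 scale, one axis per gene) of the main probe set of the 7 regulators on the 12 arrays, with the shape of a point for the replicate number, the black line for the mean of 3 arrays and the dotted line for the signal limit of 5. ID1 is higher and KLF4 lower on all ATRA arrays than on the DMSO arrays of the same cells, and the KLF10 arrays of number 3 are the highest of each group.

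ATRA raised ID1 and lowered KLF4 in both cell types, and raised ID2 in vector cells by a small amount. Of the 6 members tested, 2 were called in EVI1 cells, where 15.1% of all tested genes were called (7.45% higher, 7.66% lower). In vector cells 3 of 6 were called, where 3.52% of all genes were called (2.00% higher, 1.52% lower). With the replicate block the same members were called, while 35.7% of all genes were called in EVI1 cells and 20.0% in vector cells. Between EVI1 and vector cells no member was called by limma, at a background of 5.61% under ATRA (3.28% higher, 2.33% lower) and 1.21% under DMSO (0.533% higher, 0.682% lower). At an unadjusted p under 0.05 there was 1 member under ATRA, KLF6 (21.0% of all genes), and 2 under DMSO, ID1 and ID2 (9.79%). With the replicate block KLF10 was called under ATRA (25.3% of all genes) and ID2 under DMSO (7.19%). In these RNA samples of whole cultures, fewer cells with a transcript and less transcript per cell cannot be told apart.

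ID1, an inhibitor of E proteins, was the member with the largest change. It read 10.93, 10.85 and 10.82 in EVI1 cells with ATRA, against 7.56, 7.16 and 8.46 in EVI1 cells with DMSO. In vector cells it read 10.74, 11.46 and 10.29 with ATRA, against 8.56, 8.64 and 9.08 with DMSO. The 6 ATRA arrays lie above all 6 DMSO arrays, and within each cell type the DMSO array of number 3 is the highest DMSO array. In EVI1 cells ID1 rose by 3.14 ± 0.32 (SE, n = 3 a group), which is 8.82-fold, with a limma adjusted p of 0.000465. In vector cells it rose by 2.07 ± 0.32, which is 4.2-fold (limma adjusted p = 0.00771). The rises at the 3 replicate numbers were 3.37, 3.69 and 2.36 in EVI1 cells, and 2.18, 2.82 and 1.21 in vector cells, smallest at number 3 in both. Without both DMSO arrays of number 3 the rises were 3.51 in EVI1 cells and 2.23 in vector cells, and both were called.

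The 4 groups ordered by ID1 mean were EVI1 with ATRA (10.87 ± 0.06, SD, n = 3), vector with ATRA (10.83 ± 0.59), vector with DMSO (8.76 ± 0.28) and EVI1 with DMSO (7.73 ± 0.67). Under ATRA the cell types overlapped, with a difference of 0.04 (95% confidence interval -0.67 to 0.74, limma adjusted p = 0.972). Under DMSO the 3 EVI1 arrays were all lower than the 3 vector arrays, with differences of -1.0, -1.48 and -0.62 at the 3 numbers. The difference of -1.03 ± 0.32 (SE) did not pass the test over all genes (limma adjusted p = 0.193, 0.0967 with the replicate block), in a comparison in which 14.6% of all tested genes had arrays that did not overlap. The ATRA difference was larger in EVI1 than in vector cells by 1.07 ± 0.46 (SE), larger at all 3 numbers (1.19, 0.87 and 1.15). That interaction had an unadjusted limma p of 0.0373 and an adjusted p of 0.998 (0.374 with the replicate block). limma called no gene of the 14080 for the interaction (0%), with or without the block, and 362 genes (2.57%), with ID1 and ID2 among them, had an unadjusted p under 0.05.

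ID2, which also pairs with E proteins and is known for roles in lymphoid and dendritic cell development, changed far less. It read 11.70, 11.68 and 11.82 in EVI1 cells with ATRA, against 11.52, 11.68 and 11.84 with DMSO, and these groups overlap. The vector arrays read 11.75, 11.80 and 12.02 with ATRA, against 11.33, 11.39 and 11.43 with DMSO. They did not overlap, as for 23.4% of all tested genes in that comparison. Vector cells with DMSO are the lowest group, and the other 3 groups overlap one another. ID2 rose by 0.47 ± 0.11 (SE) in vector cells, which is 1.39-fold (limma adjusted p = 0.0383). This call did not hold without any 1 of 8 of the 12 arrays: each of the 6 vector arrays and the number 2 arrays of both EVI1 groups (adjusted p 0.0566 to 0.161), nor without both DMSO arrays of number 3 (0.0616). In EVI1 cells the difference was 0.05 (95% confidence interval -0.19 to 0.29, limma adjusted p = 0.834).

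Under DMSO, ID2 was higher in EVI1 than in vector cells by 0.30 ± 0.11 (SE), with limma adjusted p = 0.327, and 0.0322 with the replicate block. Under ATRA the EVI1 cells differed from vector cells by -0.12 (95% confidence interval -0.36 to 0.12, limma adjusted p = 0.596). The interaction was -0.42 ± 0.16 (SE), negative at all 3 numbers (limma adjusted p = 0.998, 0.346 with the replicate block). A second, dimmer ID2 probe set, of a class with probes that can bind other transcripts, differed under ATRA by 0.18 in EVI1 cells and 0.32 in vector cells. Neither difference passed the test over all probe sets (limma adjusted p = 0.742 and 0.624). Under DMSO this probe set was higher in EVI1 than in vector cells by 0.14, and lower at number 1. That difference was not called over all probe sets (limma adjusted p = 0.988, 0.535 with the block). A further probe set annotated to ID2 and ID2B together was not used.

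ID3, the third E protein inhibitor, was near the background of the arrays and was not tested. It read 4.84, 4.21 and 4.46 in EVI1 cells with ATRA, against 5.05, 4.73 and 4.70 in EVI1 cells with DMSO. In vector cells it read 4.69, 4.62 and 4.59 with ATRA, against 4.86, 5.04 and 4.75 with DMSO. Only 2 of 12 arrays reached 5, both of them DMSO arrays. The ATRA differences were -0.32 in EVI1 cells, where the groups overlap, and -0.25 in vector cells, where they do not. In vector cells the ATRA and DMSO arrays of 23.4% of all tested genes did not overlap. ID4, the remaining family member, was tested and did not pass in any comparison, with means of 6.0, 5.93, 6.14 and 5.96 in EVI1 ATRA, EVI1 DMSO, vector ATRA and vector DMSO.

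**Figure D2:**
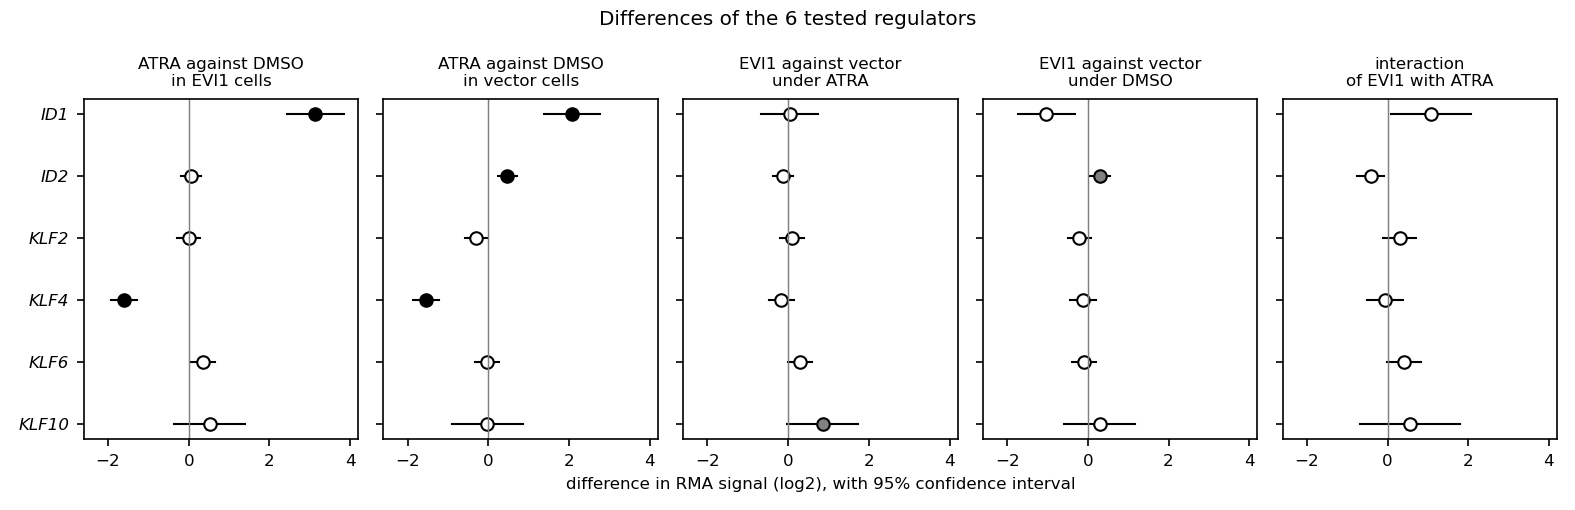
Difference in RMA signal (log2 scale) of the 6 tested regulators in the 5 comparisons, with the 95% confidence interval of the limma fit as a line. Black points passed the test over all genes, grey points passed it only with the replicate block (ID2 under DMSO, KLF10 under ATRA), and white points passed neither.

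KLF4, a zinc finger factor that promotes monocytic differentiation, fell with ATRA to a similar extent in both cell types. It read 5.82, 5.78 and 6.12 in EVI1 cells with ATRA, against 7.32, 7.78 and 7.41 in EVI1 cells with DMSO. The vector arrays read 5.85, 6.19 and 6.18 with ATRA, against 7.59, 7.67 and 7.59 with DMSO. All 6 ATRA arrays lie below all 6 DMSO arrays. KLF4 fell by 1.60 ± 0.15 (SE) in EVI1 cells, which is 3.02-fold lower (limma adjusted p = 0.000305), and its difference in vector cells was -1.54 ± 0.15, which is 2.91-fold lower (limma adjusted p = 0.00112). At the 3 replicate numbers the differences were -1.5, -2.0 and -1.29 in EVI1 cells, and -1.74, -1.48 and -1.41 in vector cells.

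Between the cell types KLF4 was not called. The difference between EVI1 and vector cells was -0.17 (95% confidence interval -0.48 to 0.15) under ATRA and -0.11 (-0.43 to 0.20) under DMSO, with limma adjusted p of 0.583 and 0.937. The interaction was -0.05 (95% confidence interval -0.50 to 0.39, limma adjusted p = 0.998). By mean the groups were ordered vector with DMSO (7.62 ± 0.05, SD, n = 3), EVI1 with DMSO (7.50 ± 0.24), vector with ATRA (6.07 ± 0.19) and EVI1 with ATRA (5.91 ± 0.19), with overlap between the cell types under each agent. A second KLF4 probe set read 4.22 to 5.12 and was below the signal limit, with ATRA differences of -0.39 in EVI1 cells and -0.44 in vector cells. With the mean of both probe sets the fall was 0.99 in each cell type, and it was called in both.

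KLF2, which is close to KLF4 in its zinc fingers, was near the array medians and was called in no comparison. It read 5.44, 5.69 and 5.21 in EVI1 cells with ATRA, against 5.52, 5.54 and 5.27 with DMSO. In vector cells it read 5.29, 5.32 and 5.44 with ATRA, against 5.65, 5.77 and 5.53 with DMSO. The EVI1 groups overlap, whereas every vector ATRA array is lower than every vector DMSO array. The arrays did not overlap, in either direction, for 23.4% of all tested genes. The difference in vector cells was -0.30 (95% confidence interval -0.59 to -0.01, limma adjusted p = 0.264), and in EVI1 cells 0.00 (-0.28 to 0.29, limma adjusted p = 0.994). Between EVI1 and vector cells the differences were 0.10 under ATRA (-0.19 to 0.38) and -0.21 under DMSO (-0.49 to 0.08). Its second probe set had a mean of 4.85 over the 12 arrays and was not tested.

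KLF6, a widely expressed family member that is an early response gene in many cells, had small differences that were not called. It read 8.74, 8.76 and 9.28 in EVI1 cells with ATRA, against 8.61, 8.63 and 8.45 with DMSO. The vector arrays read 8.57, 8.72 and 8.59 with ATRA, against 8.73, 8.65 and 8.62 with DMSO, and these groups overlap. The high value of EVI1 cells with ATRA belongs to number 3, where the ATRA difference was 0.83, against 0.13 at each of the other numbers. The difference in EVI1 cells was 0.36 ± 0.14 (SE, limma adjusted p = 0.0981), in a comparison in which the arrays of 27.5% of all tested genes did not overlap. It was 0.19 without the number 3 array of EVI1 cells with ATRA, and 0.46 (adjusted p = 0.0425) without the number 1 array of that group. In vector cells it was -0.04 (95% confidence interval -0.34 to 0.26).

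EVI1 cells differed from vector cells in KLF6 by 0.30 ± 0.14 (SE) under ATRA, with no overlap, as for 21.0% of all tested genes (limma adjusted p = 0.237), and by -0.10 under DMSO (95% confidence interval -0.40 to 0.20). The difference under ATRA was 0.12 without the number 3 array of EVI1 cells with ATRA. KLF6 has 5 probe sets. Under ATRA all 5 were higher in EVI1 than in vector cells, by 0.05 to 0.32, and none was called over all probe sets. The ATRA difference in EVI1 cells was 0.22 to 0.36 for 4 of them and -0.11 for the dimmest, with a mean of 5.21.

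**Figure D3:**
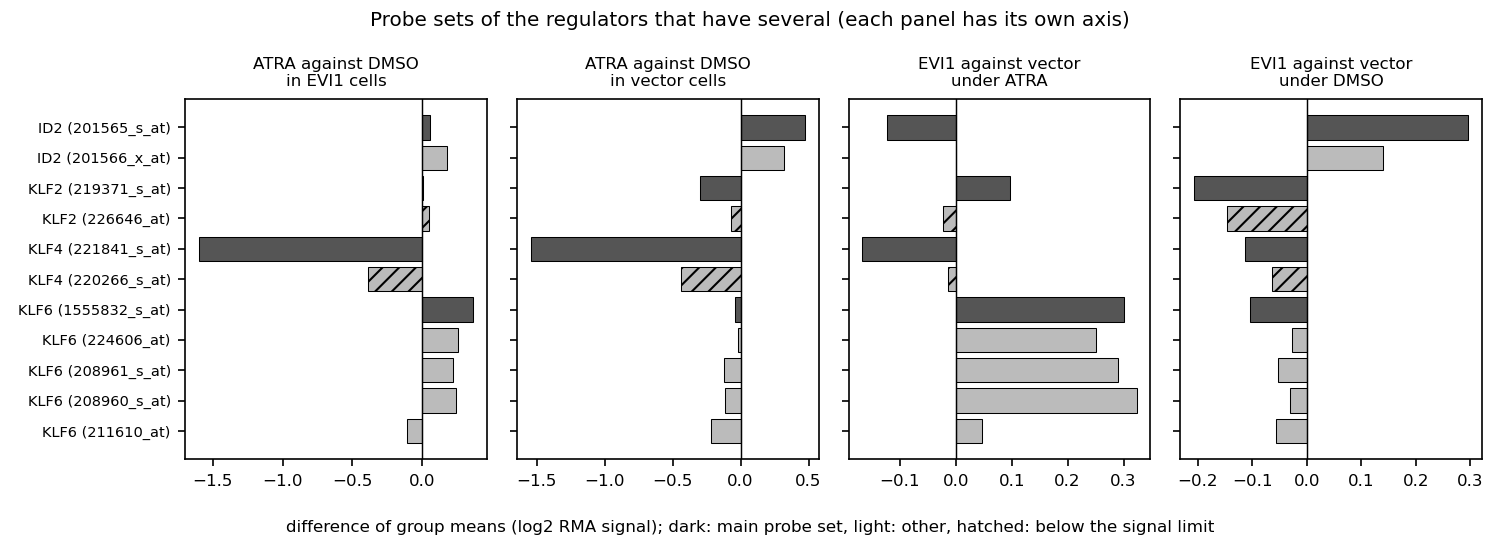
Difference of group means (log2 RMA signal, each panel with its own axis) for every probe set of ID2, KLF2, KLF4 and KLF6, the members with more than 1. Dark bars are the main probe sets, light bars the others, and hatched bars those below the signal limit, among them the second KLF4 probe set with ATRA differences of -0.39 and -0.44.

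KLF10, an early target of TGF-beta that represses transcription, varied more between replicate numbers than any other KLF member. It read 8.94, 9.46 and 10.63 in EVI1 cells with ATRA, against 8.64, 9.22 and 9.59 in EVI1 cells with DMSO. In vector cells it read 8.14, 8.99 and 9.33 with ATRA, against 8.66, 8.83 and 9.06 with DMSO. In all 4 groups number 3 has the highest and number 1 the lowest value, and the groups overlap. Under ATRA, KLF10 was higher in EVI1 than in vector cells at every number, by 0.80, 0.47 and 1.3. That difference of 0.86 had an SE of 0.40 and a limma adjusted p of 0.252 without the block, and an SE of 0.20 and an adjusted p of 0.0116 with it. Without the number 3 array of EVI1 cells with ATRA the difference was 0.38, and without the number 1 array of vector cells with ATRA it was 0.52.

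The other KLF10 comparisons passed neither fit. ATRA differed from DMSO by 0.53 ± 0.40 (SE) in EVI1 cells (limma adjusted p = 0.450, 0.0623 with the replicate block) and by -0.03 ± 0.40 in vector cells. EVI1 differed from vector cells by 0.30 ± 0.40 under DMSO (adjusted p = 0.946, 0.427 with the block). With 1 array left out, the ATRA difference in EVI1 cells ranged from 0.05, without the number 3 ATRA array, to 0.895, without the number 1 ATRA array. The DMSO difference ranged from 0.08, without the number 3 EVI1 array, to 0.555, without the number 1 EVI1 array. By mean the order was EVI1 with ATRA (9.68 ± 0.87, SD, n = 3), EVI1 with DMSO (9.15 ± 0.48), vector with DMSO (8.85 ± 0.20) and vector with ATRA (8.82 ± 0.61), and no neighbours in this order are apart by more than their spread.

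**Figure D4:**
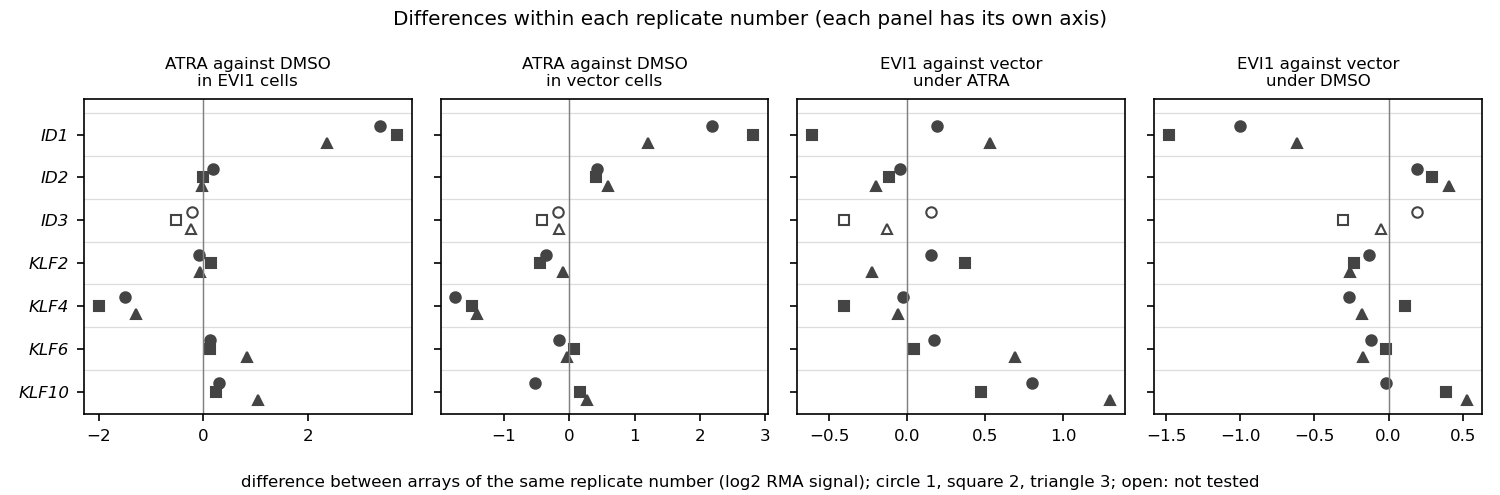
Differences between arrays of the same replicate number (log2 RMA signal, each panel with its own axis) for the 7 regulators, with circles for number 1, squares for number 2, triangles for number 3 and open points for the untested ID3. The KLF6 difference under ATRA in EVI1 cells is 0.83 at number 3 and 0.13 at the others, while those of ID1 and KLF4 have the same sign at all numbers.

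Of the 17 KLF genes 13 were tested, among them the 4 members, and the called ones went both ways. In EVI1 cells 4 of 13 were called with ATRA, beside 15.1% of all tested genes, and in vector cells 1 of 13, beside 3.52%. In EVI1 cells ATRA raised KLF7 (0.92 ± 0.19, SE) and KLF13 (0.55 ± 0.14) and lowered KLF15 (-0.74 ± 0.18) beside KLF4, with limma adjusted p of 0.00965, 0.0195 and 0.0196. In vector cells KLF4 was the only KLF gene called without the block, and the same 3 genes differed there by 0.39, 0.25 and -0.27. The difference between these responses was not called for any of them. KLF7 and KLF13 were also higher in EVI1 than in vector cells under ATRA, by 0.84 ± 0.19 and 0.59 ± 0.14 (limma adjusted p = 0.0278 for both). In that comparison 3.28% of all tested genes were called higher. KLF7 averaged 8.23 ± 0.26 in EVI1 ATRA, 7.31 ± 0.37 in EVI1 DMSO, 7.39 ± 0.03 in vector ATRA and 7.0 ± 0.27 in vector DMSO (SD, n = 3). With the block, 3 KLF genes were called higher and 4 lower with ATRA in EVI1 cells, and 2 lower in vector cells. Between EVI1 and vector cells the block gave 5 higher and 2 lower under ATRA, and 1 higher under DMSO. Over all tested genes the block called 35.7% with ATRA in EVI1 cells and 20.0% in vector cells, in either direction. Between the cell types it called 25.3% under ATRA and 7.19% under DMSO. The median difference of the 13 genes was 0.02 with ATRA in EVI1 cells and -0.04 in vector cells, beside -0.02 and -0.00 over all tested genes.

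Among 11 tested genes of E proteins and other basic helix-loop-helix factors, those called fell with ATRA. LYL1, a partner of E proteins in early blood cells, fell by 1.10 ± 0.13 (SE) in EVI1 cells and by 0.72 ± 0.13 in vector cells (limma adjusted p = 0.000964 and 0.0153). The E protein gene TCF3, read by the brightest of its 14 probe sets, fell by 0.84 ± 0.15 in EVI1 cells (adjusted p = 0.00427). The repressor gene HES6 fell there by 0.99 ± 0.19 (0.00606). In vector cells TCF3 differed by -0.58 (adjusted p = 0.0578, 0.00319 with the block) and HES6 by -0.61 (0.106, 0.00225 with the block). The E protein genes TCF4 and TCF12 were not called by limma without the block in any comparison. In all, 3 of 11 fell in EVI1 cells, where 7.66% of all tested genes were called lower, and 1 of 11 in vector cells, where 1.52% were. With the block 4 and 5 of 11 fell, where 2725 and 1416 of the 14080 tested genes were called lower. Between EVI1 and vector cells none was called without the block. With it 1 was higher and 2 were lower under ATRA and 1 was higher under DMSO, beside 25.3% and 7.19% of all tested genes in either direction. The median difference was -0.19 in EVI1 cells and -0.15 in vector cells.

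**Figure D5:**
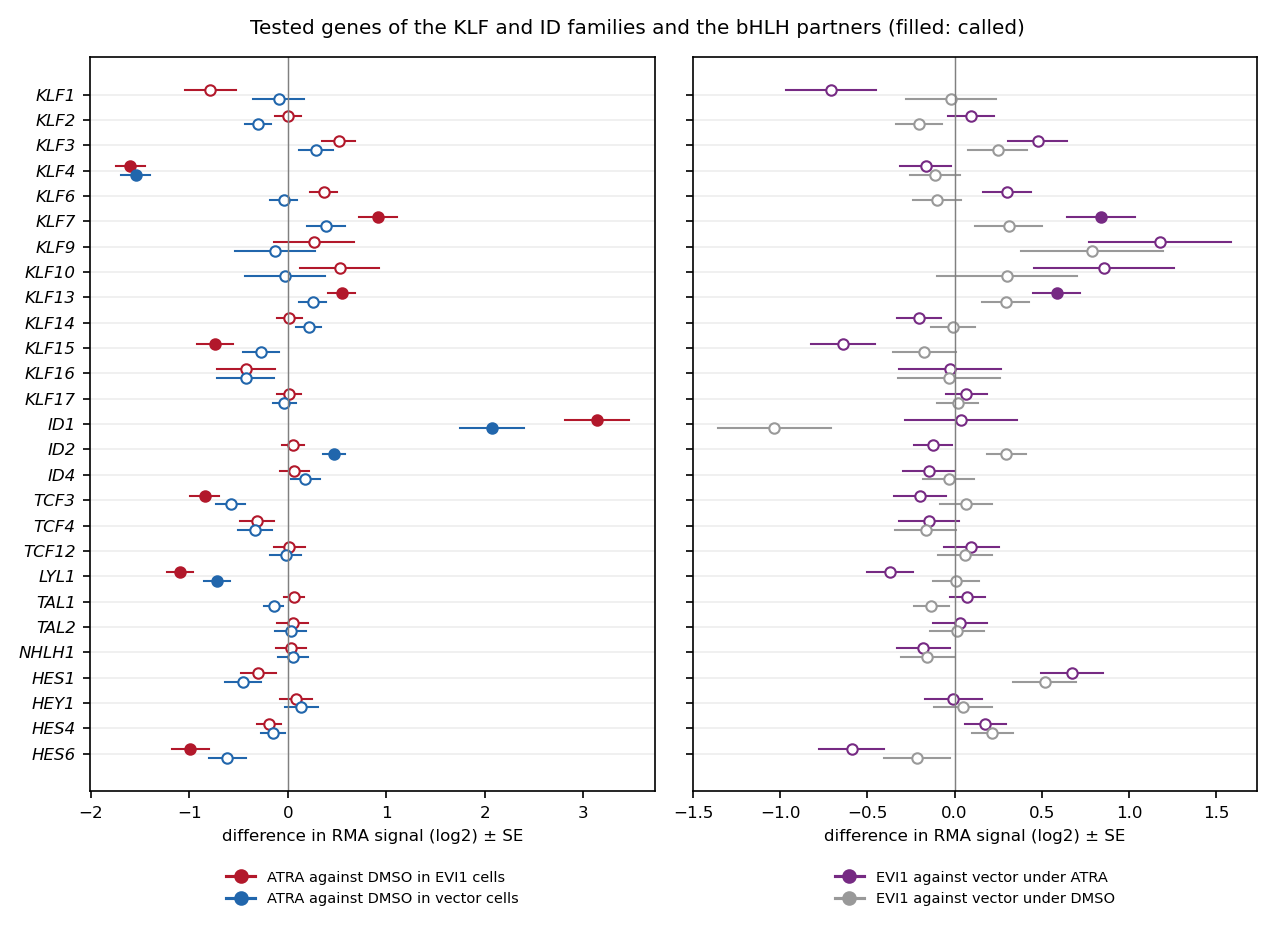
Difference in RMA signal (log2 scale, mean ± SE of the limma fit) of the tested genes of the KLF and ID families and of basic helix-loop-helix partners, with the ATRA comparisons on the left and the EVI1 comparisons on the right. Filled points passed the test over all genes, among them KLF4, ID1 and LYL1 in both ATRA comparisons.

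In the BMP branch upstream of ID genes 15 genes were tested. With ATRA 2 were called in EVI1 cells and 1 in vector cells, beside 15.1% and 3.52% of all tested genes, and 3 were called between EVI1 and vector cells under ATRA, beside 5.61%. Among them, SMURF2, a ubiquitin ligase that acts on SMAD factors, rose by 0.40 ± 0.12 (SE) with ATRA in EVI1 cells, and NOG, which encodes the BMP antagonist noggin, fell by 2.24 ± 0.17 (limma adjusted p = 0.0435 and 0.000125). In vector cells NOG fell by 1.40 ± 0.17 (adjusted p = 0.00272), the 1 called gene of the list. Under ATRA, EVI1 cells were higher than vector cells in SMURF1 (0.89 ± 0.17) and in ENG (0.71 ± 0.15), a TGF-beta coreceptor, and lower in NOG (-0.69 ± 0.17), with limma adjusted p of 0.0119, 0.0175 and 0.0363. NOG averaged 4.39 in EVI1 ATRA, 6.63 in EVI1 DMSO, 5.08 in vector ATRA and 6.47 in vector DMSO, so its ATRA groups were near or below the signal limit of 5 and the sizes of its differences are uncertain. None was called under DMSO without the block. With the block 5 rose and 1 fell with ATRA in EVI1 cells, 1 rose and 1 fell in vector cells, 6 were higher and 2 lower in EVI1 than in vector cells under ATRA, and 2 were higher under DMSO. Beside these counts, the block called 35.7%, 20.0%, 25.3% and 7.19% of all tested genes in either direction. The list's median difference was 0.07 with ATRA in EVI1 cells and -0.05 in vector cells.

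In the TGF-beta branch, 12 genes were tested. With ATRA 4 were called in EVI1 cells and 1 in vector cells, beside 15.1% and 3.52% of all tested genes. The receptor gene TGFBR2 rose with ATRA by 0.65 ± 0.11 (SE) in EVI1 cells and by 0.59 ± 0.11 in vector cells (limma adjusted p = 0.00393 and 0.0183). In EVI1 cells the other receptor gene TGFBR1 (-0.66), the ligand gene TGFB2 (-0.63) and the corepressor gene TGIF2 (-0.53) fell, with adjusted p from 0.0130 to 0.0298. TGFB2 averaged 4.88 in EVI1 ATRA, below the signal limit, against 5.52 in EVI1 DMSO. SKIL, a repressor of SMAD factors and itself a TGF-beta target, differed by 1.23 ± 0.40 in EVI1 cells (adjusted p = 0.0597, 0.000154 with the block) and by 0.76 ± 0.40 in vector cells (0.371, 0.00507 with the block). No gene of this list was called between EVI1 and vector cells without the block. With the block 2 rose and 3 fell with ATRA in EVI1 cells, 2 rose and 2 fell in vector cells, and 1 was higher and 1 lower in EVI1 than in vector cells under ATRA. The shares of all tested genes called with the block in these comparisons, in either direction, were 35.7%, 20.0% and 25.3%.

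Of 10 tested genes of ERK5 and MEF2, a kinase route known to induce KLF2 and KLF4, 2 were called with ATRA in EVI1 cells, beside 15.1% of all tested genes. MEF2D (-0.33 ± 0.10, SE) and the class IIa deacetylase gene HDAC4 (-0.29 ± 0.09) fell with ATRA in EVI1 cells (limma adjusted p = 0.0477 and 0.0402), and none was called in the other comparisons without the block. With it 2 rose and 2 fell in EVI1 cells, 1 fell in vector cells, and 2 were higher in EVI1 than in vector cells under ATRA. Of 13 corepressor and coactivator genes, the acetyltransferase gene KAT2B rose with ATRA in EVI1 cells (0.88 ± 0.22, adjusted p = 0.0200), and the corepressor gene CTBP1 was lower in EVI1 than in vector cells under ATRA (-0.38 ± 0.09, 0.0259). Each was the 1 called gene of 13 in its comparison, beside 15.1% and 5.61% of all tested genes. No gene of this second list was called in vector cells with ATRA or under DMSO without the block. With it 4 rose and 2 fell with ATRA in EVI1 cells, 2 rose and 1 fell in vector cells, and in EVI1 against vector cells 4 were higher and 2 lower under ATRA and 1 was lower under DMSO. For both lists, the shares of all tested genes called with the block were 35.7% with ATRA in EVI1 cells and 20.0% in vector cells. They were 25.3% between the cell types under ATRA and 7.19% under DMSO. Of the SP factors, which share the zinc finger type of KLF proteins, none of 6 tested was called without the block, and with it SP4 was lower with ATRA in EVI1 cells (-0.36) and lower in EVI1 than in vector cells under ATRA (-0.46).

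Among 13 tested genes reported elsewhere to be bound or controlled by KLF2 or KLF4, the called ones went both ways. Of all tested genes, 15.1% were called with ATRA in EVI1 cells and 3.52% in vector cells. Between EVI1 and vector cells 5.61% of all tested genes were called under ATRA and 1.21% under DMSO. With ATRA in EVI1 cells THBD, the thrombomodulin gene (1.73 ± 0.43, SE), the integrin gene ITGB7 (1.51 ± 0.24), the cell cycle inhibitor gene CDKN1A (1.49 ± 0.24) and IL1B (1.29 ± 0.30) rose, and SELPLG and the tissue factor gene F3 fell by 0.64 and 0.60, with limma adjusted p from 0.00262 to 0.0341. In vector cells THBD (3.16 ± 0.43), CDKN1A (1.23 ± 0.24) and ITGB7 (1.15 ± 0.24) rose and F3 fell by 0.83 (adjusted p 0.00388 to 0.0286). Under ATRA, 3 genes of the list were higher in EVI1 than in vector cells, CDKN1A (1.56), F3 (0.62) and PPARG (0.46), and under DMSO CDKN1A was (1.3). THBD averaged 5.25 ± 0.17 in EVI1 ATRA, 3.52 ± 0.19 in EVI1 DMSO, 10.12 ± 0.41 in vector ATRA and 6.96 ± 1.16 in vector DMSO (SD, n = 3). It was lower in EVI1 than in vector cells under both agents (adjusted p = 0.000119 with ATRA and 0.00226 with DMSO), while KLF2 and KLF4 were not called in either. THBD in EVI1 DMSO was thus below the signal limit of 5, and in EVI1 ATRA close to it, and differences against these groups are of uncertain size. With the block 4 genes of the list rose and 4 fell with ATRA in EVI1 cells, 4 rose and 3 fell in vector cells, and in EVI1 against vector cells 5 were higher and 2 lower under ATRA and 3 higher and 1 lower under DMSO. In the same order, the block called 35.7%, 20.0%, 25.3% and 7.19% of all tested genes in either direction. CD14 and S1PR1 were below the signal limit.

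Over the 12 arrays, which fall into 4 groups and share 1 normalisation, the tested genes with the pattern most like ID1 were SLA, GNG2 and CXCR2 (Pearson r = 0.98, 0.97 and 0.97), and the most opposite was FAM210A (-0.98). GNG2, for example, averaged 12.04 in EVI1 ATRA, 8.70 in EVI1 DMSO, 12.08 in vector ATRA and 9.67 in vector DMSO. Its lowest group was EVI1 DMSO, as for ID1. GNG2 was picked for its likeness to ID1 on these same arrays, so that shared lowest group is no separate evidence on ID1. For KLF4 they were HOMER1, RAP2B and TENT4B (0.98, 0.98 and 0.96), with LAIR1 the most opposite (-0.98). For KLF10 they were ARFGAP3, PLS1 and AVPI1 (0.96, 0.96 and 0.95), with REX1BD the most opposite (-0.97). KLF6 was nearest to CYP26A1, LRRC25 and SIGLEC16 (0.93, 0.92 and 0.91), the first of which encodes a retinoic acid hydroxylase, and opposite to CENPW (-0.92). LRRC25 and SIGLEC16 averaged 5.42 and 5.87 in EVI1 ATRA, but 4.57 to 4.99 in the other groups, below the signal limit of 5. With ATRA in EVI1 cells CYP26A1 and LRRC25 were not called (limma adjusted p = 0.0939 and 0.0743), while SIGLEC16 was (0.00745). None of them was called in vector cells. They were picked on these same arrays for likeness to KLF6, whose mean was highest in EVI1 ATRA. Their differences in EVI1 cells are thus no separate support for that of KLF6. KLF6 itself was highest on 1 EVI1 ATRA array (9.28), and its likeness without that array was not tested. ID2 was nearest to GNAS, ZNF862 and TCEANC (0.89, 0.88 and 0.88) and opposite to GCLM (-0.93), and KLF2 was nearest to FAM43B, TNFRSF4 and LINC00445 (0.87, 0.86 and 0.85) and opposite to HNRNPA0 (-0.85).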

How the data were processed

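From each sample, 250 ng of total RNA was amplified, biotin-labelled and hybridised to an Affymetrix array, per the labels' protocols. Per the submitters' processing notes, the authors used RMA and Affymetrix Expression Console 1.3. The deposited values are read as log2 signals from their range, and the settings are not given in the sources used here. Of 54675 probe sets, 41097 carried exactly 1 gene symbol in the array annotation, 1801 carried several and 11777 were not listed. Each gene was represented by its brightest probe set. All 12 arrays entered a single limma fit of the 4 group means (version 3.58.1, R 4.3.3, lmFit and eBayes). That fit had 8 residual degrees of freedom and no replicate block. The series describes the replicates as biological.

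All 18 pairs of arrays with the same number in different groups had deviations from their group means correlated above 0.1, so the numbers were taken to pair the arrays. The members and gene lists were chosen with earlier results of these data known. Named genes are all members, up to 4 called genes of a list with the largest difference in a comparison, the family genes, and for each tested member the 3 most alike and the 1 most opposite gene by Pearson r. SELPLG, SKIL, SP4, TCF4, TCF12, CD14 and S1PR1 were named after their values were seen. Alternatives were other filters, probe set rules, scalings, variance models, the replicate block and leaving out arrays. Leaving out both DMSO arrays of number 3 was chosen after seeing the data. Promoter letters are RefSeq's. Precision is limited by having 3 arrays a group.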

Additional observations from a re-analysis of the deposited data

Results flagged for a closer look

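For the main probe sets of 2 members, the difference between EVI1 and vector cells had opposite signs under ATRA and under DMSO at all 3 replicate numbers. How many of all tested genes have such signs was not counted. KLF6 was higher in EVI1 cells under ATRA (0.17, 0.04 and 0.69 at numbers 1 to 3) and lower under DMSO (-0.12, -0.02 and -0.17), so that the 2 differences were apart by 0.40. ID2 was lower in EVI1 cells under ATRA (-0.05, -0.12 and -0.20) and higher under DMSO (0.19, 0.29 and 0.41), which is a gap of -0.42. The gap is the interaction of the limma fit, with an adjusted p of 0.998 for both genes, and of 0.390 for KLF6 and 0.346 for ID2 with the replicate block. Several of these differences are smaller than 0.1, and causes were not tested. The second ID2 probe set did not have this pattern at all numbers, with mean differences of 0 under ATRA and 0.14 under DMSO. By mean the other KLF6 probe sets had the same signs as the main one, but not all of them at every number.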

How the results depend on the processing

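The rise of ID1 and the fall of KLF4 with ATRA were called in both cell types under each of 12 other settings and without any 1 of the 12 arrays. Over those 12 settings ID1 rose by 3.13 to 3.51 in EVI1 cells and 2.05 to 2.23 in vector cells. Without a whole replicate number, with fewer arrays, ID1 and KLF4 were not called in either cell type without number 2, nor ID1 in vector cells without number 1. The ID2 call in vector cells was lost under 5 of the 12 settings. Leaving out arrays gave 5 to 3229 genes with ATRA in EVI1 cells (0 to 3 members), 0 to 633 in vector cells (0 to 3 members), 15 to 1957 between EVI1 and vector under ATRA, 12 to 190 under DMSO and 0 to 1 for the interaction. In that order, the replicate block gave 5023, 2818, 3559, 1013 and 0 genes, and it called 1 member between EVI1 and vector under ATRA and 1 under DMSO, as paired analysis of the numbers, while it changed no other member's call. Array quality weights gave 3888, 1387, 2761, 382 and 1. The arrays of the 2 groups alone gave 751 with ATRA in EVI1 cells and 264 between EVI1 and vector under ATRA, and without both DMSO arrays of number 3 the comparison under DMSO gave 35.

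Signs turned only for differences that were not called. For KLF10 with ATRA in vector cells the value was 0.21 with array quality weights and 0.075 without both DMSO arrays of number 3 (-0.285 to 0.31 when arrays were left out). For KLF2 with ATRA in EVI1 cells it was -0.0075 with quantile normalisation, -0.0067 with arrays shifted to one median and -0.083 without both DMSO arrays of number 3 (-0.12 to 0.12). For ID2 it was -0.015 with array quality weights in EVI1 cells with ATRA (-0.027 to 0.13), and 0 between EVI1 and vector under ATRA with the probe set of largest variance. When arrays were left out, KLF6 with ATRA in vector cells ranged from -0.095 to 0.02, KLF2 and ID1 between EVI1 and vector under ATRA from -0.04 to 0.26 and from -0.23 to 0.36, and the KLF4 interaction from -0.20 to 0.18. The causes were not tested. Signal limits ID3 and the second probe sets of KLF2 and KLF4, which lie below 5 on most arrays.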
